A study of Homo sapiens with 6 samples.

Results

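The 10 genes described here encode antiviral restriction factors, namely BST2, MX1, MX2, RSAD2, ISG20, SAMHD1, TRIM5, TRIM22, ZC3HAV1 and SHFL. They were chosen by name, with earlier results of these data known, as genes whose RefSeq transcript is given for a probe on the array. All 10 were measured, by 13 probes, among 22437 genes with a named probe. Gene expression was profiled on single-colour Agilent arrays 48 h after transfection of AGS cells, which come from a human gastric adenocarcinoma. The groups were si-Control, a nontargeting siRNA, with 3 arrays, and si-C1GALT1-3, an siRNA against C1GALT1, with 3 arrays. C1GALT1 encodes the galactosyltransferase that extends the initial sugar of mucin-type O-glycans. A single siRNA against C1GALT1 was put on the arrays, so its sequence and the loss of C1GALT1 cannot be told apart. Nothing in the sources says that the replicates were separate cultures, and p-values then measure only the spread between these samples.

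Restriction factors are proteins that act inside or on the surface of a cell against a step of the viral life cycle, such as uncoating, reverse transcription, RNA stability, translation or budding. Many of them are induced by interferon, which acts through receptors at the cell surface and the interferon-stimulated response element of target promoters. Epithelial cells make and answer interferon, and such genes can be expressed without a virus.

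C1GALT1 itself had normalized log2 signals of 12.22, 13.03 and 12.62 on the si-Control arrays and 11.76, 11.98 and 11.13 on the si-C1GALT1-3 arrays. The groups did not overlap, and the log2 difference was -1.0 ± 0.31 (SE, n = 3 per group, limma, adjusted p = 0.265), which did not pass the threshold used below. In the study, western blots of AGS cells showed less C1GALT1 protein with siRNAs that included si-C1GALT1-3. Those blots are of protein and not of the RNA on these arrays. Epithelial markers were present, with 5 of 6 well above background on every array and CLDN18 on none. The leukocyte markers PTPRC, CD3E and CD14, 3 of 4 measured, were well above background on all arrays too. So were 2 of 5 fibroblast and 2 of 3 endothelial markers, on every array with a value. None of the 18 measured epithelial, leukocyte, fibroblast and endothelial markers passed the threshold with limma, and 2 of them, both lower, had an unadjusted p under 0.05. The summed signal of the leukocyte markers was 12945 to 21342 on si-Control arrays and 12534 to 13925 on si-C1GALT1-3 arrays. On si-Control replicate 2 a block of 9712 gene spots with low signal was left out, and it held 0 of the 13 probes. Depending on the array, 66.2% to 72.7% of gene spots stood well above background, none reached saturation, and the precision is limited by the small number of arrays.

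The promoters of 8 of the 10 genes were in the sequence table (RefSeq, GRCh38.p14), in 11 windows that run from 250 bases before to 50 after a start. MX2 and TRIM22 were not matched. The interferon-stimulated response element, searched as GAAA, any 2 bases and GAAA, was found on either strand in 6 of these 8 genes, namely BST2, MX1, RSAD2, ISG20, TRIM5 and SHFL. Of all 35116 windows 3.57% held it, as did 4.38% of 27305 genes. The letters TTCNNNGAA of the gamma-activated site were found in BST2, MX1 and ZC3HAV1, against 9.38% of all genes, and 1 of the matches in BST2 and the match in MX1 overlap a match of the response element. A match is a description of the letters in the window. The windows below are those of BST2, RSAD2 and SAMHD1, whose signals rose, and of TRIM5, whose signal did not. Matches of the response element are in capitals and each sequence is written 5′ to 3′ on the strand of the gene.
BST2, chr19:17405581-17405880, minus strand: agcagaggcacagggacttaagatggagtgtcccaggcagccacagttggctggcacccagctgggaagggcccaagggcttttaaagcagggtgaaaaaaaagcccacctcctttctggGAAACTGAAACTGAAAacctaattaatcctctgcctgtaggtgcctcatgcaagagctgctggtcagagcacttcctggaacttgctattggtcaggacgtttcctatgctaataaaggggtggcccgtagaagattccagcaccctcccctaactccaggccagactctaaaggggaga
RSAD2, chr2:6877527-6877826, plus strand: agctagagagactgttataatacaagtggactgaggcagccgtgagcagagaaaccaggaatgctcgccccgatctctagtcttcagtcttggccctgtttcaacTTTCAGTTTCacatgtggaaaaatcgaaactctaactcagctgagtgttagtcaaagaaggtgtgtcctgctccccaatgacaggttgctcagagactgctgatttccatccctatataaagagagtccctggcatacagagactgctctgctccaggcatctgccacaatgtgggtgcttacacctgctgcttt
SAMHD1, chr20:36951659-36951958, minus strand: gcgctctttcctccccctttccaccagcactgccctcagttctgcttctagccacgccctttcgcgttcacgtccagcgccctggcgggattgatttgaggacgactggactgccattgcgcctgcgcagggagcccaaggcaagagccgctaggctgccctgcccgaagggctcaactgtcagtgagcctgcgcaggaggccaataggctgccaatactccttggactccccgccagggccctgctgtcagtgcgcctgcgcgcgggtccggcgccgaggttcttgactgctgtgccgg
TRIM5, chr11:5685025-5685324, minus strand: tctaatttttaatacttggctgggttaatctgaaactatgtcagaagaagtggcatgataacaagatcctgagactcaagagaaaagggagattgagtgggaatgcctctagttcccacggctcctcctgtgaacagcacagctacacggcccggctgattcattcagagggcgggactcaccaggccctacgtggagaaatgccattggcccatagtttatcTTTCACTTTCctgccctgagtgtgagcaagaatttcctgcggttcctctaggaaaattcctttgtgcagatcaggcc
In BST2 the match occurs 2 times in overlap, starting at positions -130 and -124 relative to the start, and reads as 3 repeats of a GAAA core. In RSAD2 the match lies on the opposite strand at -145, and in TRIM5 on the opposite strand at -27. The window of SAMHD1 holds neither motif. RSAD2 has another window, at a start farther upstream, with no match.

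In the C1GALT1 knockdown AGS cells, 5 of the 10 genes rose past p under 0.01 and 2-fold. These were BST2, MX2, RSAD2, SAMHD1 and TRIM22, and 2.08% of all 22437 genes rose by the same threshold. None of the 10 fell by limma or by the methods' t-test, and none that was lower had an unadjusted p under 0.05, while 1.33% of all genes fell. The 3 si-C1GALT1-3 arrays all lay above the 3 si-Control arrays for 7 of the 10 genes, against 14.0% of all genes, and all below them for none, against 11.2%. The median log2 fold change was 0.89 over the 10 genes and 0.02 over all genes. The study had listed 6 of the 10, BST2, MX2, RSAD2, SAMHD1, TRIM22 and ZC3HAV1, from these same arrays. All 5 genes that passed the threshold are among these 6, and none of MX1, ISG20, TRIM5 and SHFL passed. Neither the direction of the listed genes nor the count of 5 on these arrays is therefore independent evidence. The study also reports that quantitative RT-PCR bore out the array changes of selected genes, and its primer list includes BST2, CDK1 and OAS2. Those measurements are separate from the arrays and were not re-analyzed here. After adjustment over all 58195 probes, BST2 alone of the 10 was under 0.05 (limma), where 34 probes in all (0.0584%) rose at that threshold and 2-fold.

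**Figure D1:**
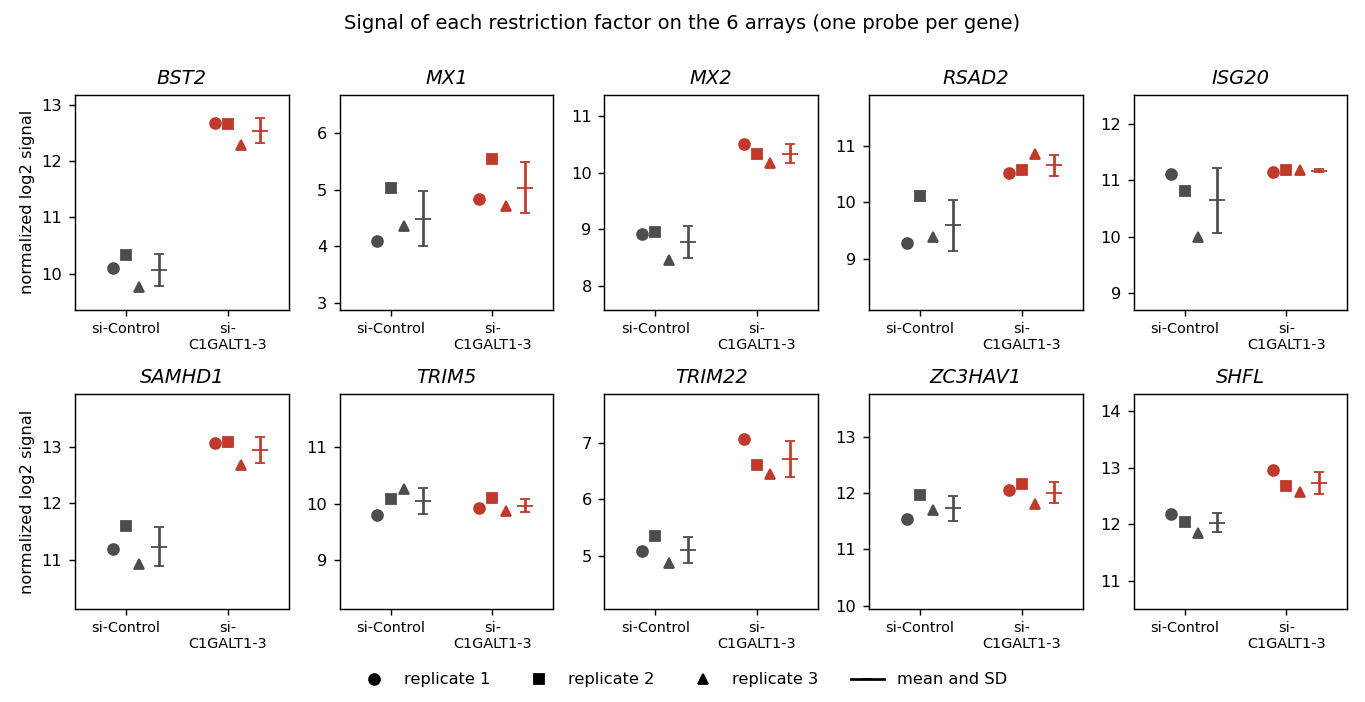
Normalized log2 signal (vertical axis, of equal span in each panel) of the probe that stands for each gene, with si-Control in grey and si-C1GALT1-3 in red, symbols for the replicate number and the mean with its SD beside them (n = 3). BST2, MX2, SAMHD1 and TRIM22 show a wide gap between the groups, ISG20 and SHFL a narrow one, and the groups of MX1, TRIM5 and ZC3HAV1 overlap.

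BST2, also known as tetherin, is a membrane protein that holds budding virions at the cell surface. It had normalized log2 signals of 10.11, 10.33 and 9.77 on the si-Control arrays and 12.68, 12.65 and 12.28 on the si-C1GALT1-3 arrays. All 3 si-C1GALT1-3 arrays were far above every si-Control array, and the spread within each group was small beside the gap. The rise was 2.47 ± 0.21 on the log2 scale (SE, 95% interval 1.95 to 2.98), or 5.53-fold (limma, adjusted p = 0.0499). Before any normalization between arrays, the median pixel signal of the spot was 1428.5, 1245 and 733 on the si-Control arrays and 7798, 7152.5 and 4519 on the si-C1GALT1-3 arrays, over a local background of 34 to 52. The other BST2 probe, A_23_P39465, read 9.27, 9.38 and 9.03 against 11.97, 11.66 and 11.34, again without overlap. It rose by 2.43 ± 0.21 (adjusted p = 0.0499), and the rise of the 2 probes differed by -0.04 on the log2 scale (exact permutation test, two-sided, p = 0.8, adjusted over 5 probe pairs 0.8, where the smallest possible p is 0.1). By p-value BST2 ranked 17 of 22437 genes. Its adjusted p was under 0.05 in 5 of 17 alternative settings, with a range of 0.00827 to 0.323, while its fold change stayed between 2.30 and 2.60 on the log2 scale. With the replicate as a block, the smallest adjusted p of any probe was 0.180 (limma), so that of BST2 was not under 0.05.

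The MX genes encode dynamin-like GTPases. MX1 acts in the cytoplasm against influenza and other RNA viruses, and MX2 near the nuclear pore against HIV. MX2 had signals of 8.92, 8.94 and 8.45 on the si-Control arrays and 10.51, 10.34 and 10.17 on the si-C1GALT1-3 arrays. The groups were far apart, and MX2 rose by 1.57 ± 0.19 on the log2 scale, or 2.96-fold (limma, adjusted p = 0.0823). MX1 had signals of 4.08, 5.03 and 4.36 against 4.83, 5.55 and 4.72. These lie close to background, since the spot was well above it on 0 of 3 si-Control arrays and on 1 of 3 si-C1GALT1-3 arrays. The MX1 groups overlapped, with a log2 difference of 0.54 ± 0.34 (adjusted p = 0.547).

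RSAD2, or viperin, is a radical SAM enzyme that turns CTP into a chain terminator of viral RNA synthesis. It had signals of 9.28, 10.10 and 9.38 on the si-Control arrays and 10.52, 10.58 and 10.86 on the si-C1GALT1-3 arrays. The groups did not overlap, but si-Control replicate 2 lay close to the si-C1GALT1-3 arrays. The rise was 1.07 ± 0.26 on the log2 scale, or 2.09-fold (limma, adjusted p = 0.193). RSAD2 did not pass the threshold on leaving out any array except si-Control replicate 2, with log2 values of 0.92 to 1.13 against 1.33. With the replicate as a block its unadjusted p was over 0.01 (adjusted p = 0.225), and RSAD2 passed the threshold in 6 of 17 alternative settings. CMPK2, a mitochondrial nucleotide kinase whose gene neighbours RSAD2, had signals of 8.91, 9.24 and 9.11 against 10.76, 10.83 and 10.35 and rose by 1.56 ± 0.19 (adjusted p = 0.0795). ISG20, a 3′ to 5′ exonuclease that degrades single-stranded RNA, had signals of 11.12, 10.82 and 10.00 against 11.15, 11.18 and 11.19. The si-C1GALT1-3 arrays were nearly equal (SD 0.02) and the si-Control arrays spread widely (SD 0.58), so that the groups did not overlap but came within 0.03 of each other on the slide of replicate 1. The log2 difference was 0.53 ± 0.30 (adjusted p = 0.510) and did not pass the test.

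SAMHD1 is a dNTP triphosphohydrolase that starves reverse transcription of its substrates. The probe A_33_P3406281 had signals of 11.18, 11.59 and 10.92 on the si-Control arrays and 13.08, 13.08 and 12.67 on the si-C1GALT1-3 arrays. The probe A_24_P267592 had 10.32, 10.98 and 10.99 against 12.77, 12.85 and 12.70. In both probes every si-C1GALT1-3 array was above every si-Control array. The rises were 1.71 ± 0.23 and 2.01 ± 0.22 on the log2 scale, or 3.28-fold and 4.03-fold (limma, adjusted p = 0.0875 and 0.0719). They differed by 0.30 on the log2 scale (exact permutation test, two-sided, p = 0.4, adjusted 0.5). The antiviral activity of SAMHD1 is switched off through phosphorylation by cyclin A2 with CDK1 or CDK2. CDK1 had signals of 13.19, 13.64 and 13.58 against 12.55, 12.40 and 11.68 and fell by 1.26 on the log2 scale (SE 0.28, adjusted p = 0.164). Its groups did not overlap. CDK1 has spots in the block left out on si-Control replicate 2, and it passed the threshold in 9 of 17 alternative settings. CCNA2, the gene of cyclin A2, had signals of 12.16, 12.42 and 12.72 against 11.51, 11.30 and 11.01. It fell by 1.16 on the log2 scale (SE 0.21, limma, adjusted p = 0.131), and its groups did not overlap. CCNA2 also has spots in the block left out. CDK2 had signals of 12.67, 13.31 and 13.33 against 12.90, 13.07 and 12.83. The CDK2 groups overlapped, with a log2 difference of -0.17 ± 0.22 (adjusted p = 0.799).

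TRIM5 and TRIM22 are tripartite motif E3 ubiquitin ligases of neighbouring genes. TRIM5 recognizes incoming retroviral capsids, and TRIM22 acts on transcription of HIV and on influenza proteins. TRIM22 had signals of 5.08, 5.35 and 4.87 on the si-Control arrays and 7.06, 6.61 and 6.45 on the si-C1GALT1-3 arrays. The si-Control spots were well above background on 0 of 3 arrays and the si-C1GALT1-3 spots on 3 of 3, and the groups were far apart. The fitted rise of TRIM22 was 1.61 ± 0.22 on the log2 scale, or 3.05-fold (limma, adjusted p = 0.0910). It rests on si-Control signals that were not well above background. With the si-Control signals set no lower than the faintest signal well above background on the array, the ratio was 2.38. With normexp background correction the log2 difference of TRIM22 was 0.78, below 2-fold, so the size of its rise depends on the treatment of background. TRIM5 had signals of 9.81, 10.08 and 10.26 against 9.93, 10.10 and 9.88, and the groups overlapped. The log2 difference was -0.08 ± 0.17 (95% interval -0.50 to 0.34, adjusted p = 0.897), and its sign turned in 2 alternative settings.

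ZC3HAV1, the zinc finger antiviral protein, binds CpG-rich viral RNA and recruits decay factors. It is made in a long form and a short form with another 3′ end, and the short form is the one known to be induced by interferon. The probe listed under a transcript of the long form, A_33_P3397418, had signals of 11.53, 11.96 and 11.70 on the si-Control arrays and 12.05, 12.17 and 11.81 on the si-C1GALT1-3 arrays. The groups overlapped, and the log2 difference was 0.28 ± 0.18 (adjusted p = 0.553). The probe listed under a transcript of the short form, A_23_P20122, had 8.19, 8.88 and 8.48 against 9.76, 9.54 and 9.47. Here all si-C1GALT1-3 arrays were higher, and the rise was 1.08 ± 0.22, or 2.11-fold (limma, adjusted p = 0.144). The change of the short-form probe exceeded that of the long-form probe by 0.80 on the log2 scale, and the exact permutation test gave the smallest p it allows with 3 arrays per group (two-sided, p = 0.1, adjusted 0.25), so that it could not pass 0.05. The short-form probe passed the threshold in 8 of 16 alternative settings. Which other transcripts each probe binds was not tested.

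SHFL, also called shiftless, stops ribosomes that change reading frame on viral RNA. It had signals of 12.18, 12.04 and 11.85 on the si-Control arrays and 12.96, 12.67 and 12.58 on the si-C1GALT1-3 arrays. The groups did not overlap, and the spread within each was small. The log2 difference was 0.71 ± 0.17 (limma, adjusted p = 0.184). Its unadjusted p was under 0.01, but the ratio of 1.64 is under the 2-fold threshold.

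**Figure D2:**
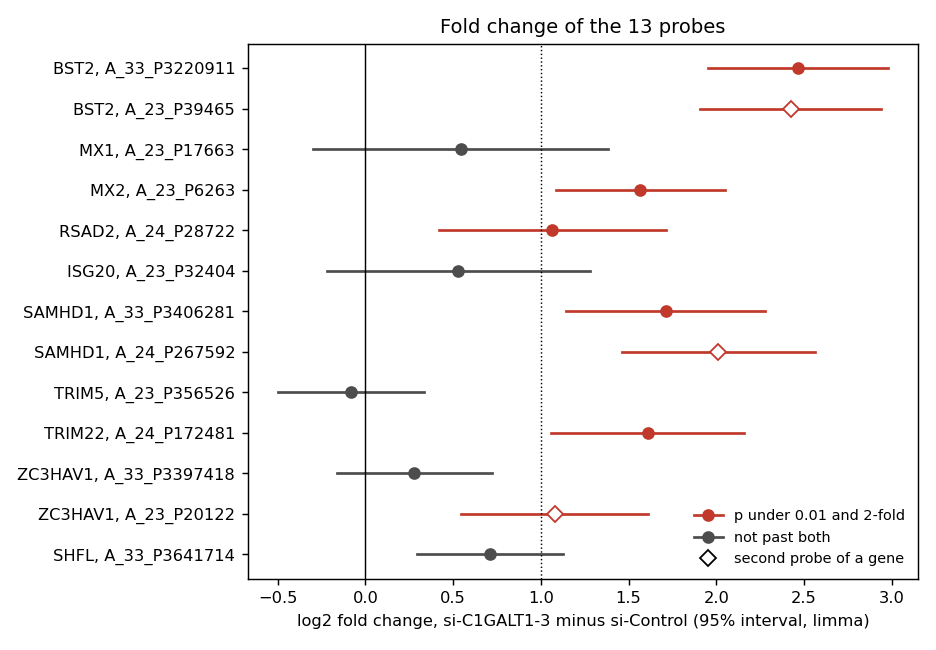
Log2 fold change of each of the 13 probes (horizontal axis, si-C1GALT1-3 minus si-Control) with its 95% interval from limma, red where p was under 0.01 and the change 2-fold, and open diamonds for the probe that does not stand for its gene. Of the 13 probes, 8 are red, all to the right of 0, and the paired probes of BST2 and of SAMHD1 lie close together while those of ZC3HAV1 do not.

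Counted by probe, 8 of the 13 probes rose past the threshold, against 1.65% of all 58195 probes (2.64% in either direction), and 10 of the 13 had groups that did not overlap with si-C1GALT1-3 higher, against 11.0% of all probes. The position of the genes among all genes was wide. MX2, SAMHD1 and TRIM22 ranked 92, 119 and 143 by p-value, SHFL and RSAD2 ranked 995 and 1091, and TRIM5 ranked 16860.

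**Figure D3:**
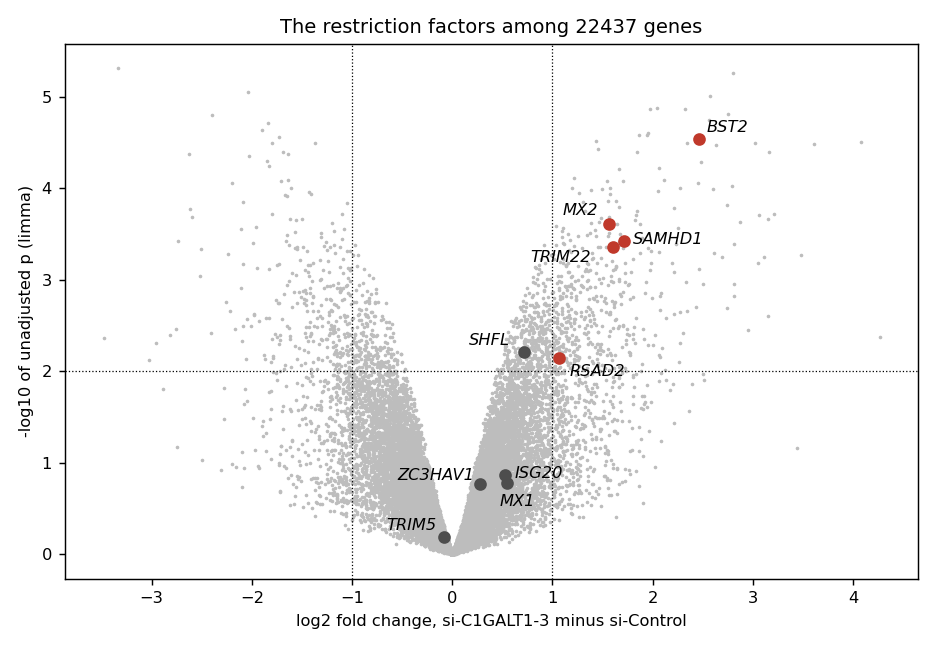
Log2 fold change (horizontal axis) against -log10 of the unadjusted limma p (vertical axis) for 22437 genes in grey, with the 10 restriction factors marked, red where past both dotted thresholds. BST2 lies at the upper right, MX2, SAMHD1 and TRIM22 lie together below it, RSAD2 and SHFL lie near the thresholds, and the other 4 lie low near the middle.

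Same-numbered arrays share a slide, and si-Control always lay in slide column 1 and si-C1GALT1-3 in column 2, so slide position and treatment cannot be told apart. Within the slides, the difference was positive on 3 of 3 slides for 9 of the 10 genes and on 2 of 3 for TRIM5, where 27.6% of the 18826 genes with values on all arrays were higher on 3 of 3. BST2 rose by 2.57, 2.33 and 2.50 on the log2 scale on the slides of replicates 1, 2 and 3. MX2 rose by 1.59, 1.39 and 1.72 on these slides, and SHFL differed by 0.78, 0.63 and 0.73. RSAD2, with 1.24, 0.47 and 1.48, and ISG20, with 0.03, 0.37 and 1.19, differed far more from slide to slide. Among the si-C1GALT1-3 arrays, replicate 3 was the lowest for 8 of the 10 genes, and not for RSAD2 or ISG20. Its median processed signal over all gene spots before normalization was 176, against 262 and 261 on the other arrays of that group, and the part of this in the result was not tested.

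**Figure D4:**
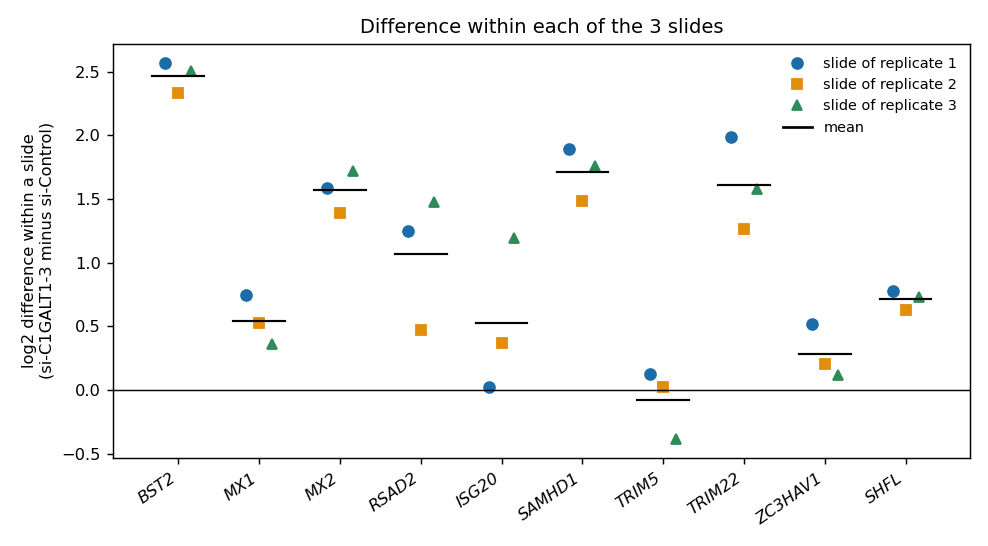
Log2 difference between the si-C1GALT1-3 and si-Control arrays of a slide (vertical axis) for each gene, with a symbol and colour per slide and a line at the mean. The points of BST2, MX2 and SHFL lie close together, those of RSAD2 and ISG20 spread widely, and TRIM5 alone has a point below 0.

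Over the 6 arrays, the genes whose signal followed that of BST2 most closely, among 14159 genes well above background on every array, were LINC00174 (Pearson r = 0.999), DYNC1I1 (0.998), EFNA3 (0.998), NF1 (0.997) and PRRT3 (0.997). MX2 came 8 in this order (r = 0.994) and SAMHD1 came 13 (0.993). SHFL had r = 0.954, RSAD2 0.895, ZC3HAV1 0.727, ISG20 0.687 and TRIM5 -0.28. MX1 and TRIM22 were not well above background on every array and were not ranked. Genes without a value on all 6 arrays were left out as well. The points share 2 groups and the normalization, so these values describe the 6 arrays only.

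Of 96 other genes of the pathway that were measured, 21 rose and 3 fell past the threshold, against 2.08% and 1.33% of all genes, and 75 (78.1%) had a higher mean in si-C1GALT1-3, against 52.4% of all genes. Among 28 other restriction factors, 4 rose and 1 fell, with a median log2 fold change of 0.34. IFI16, a nuclear DNA sensor that also silences viral genomes, rose the most, from 8.71, 9.02 and 8.75 to 10.77, 10.88 and 10.75, a log2 rise of 1.97 ± 0.14 (limma, adjusted p = 0.0499) with groups that did not overlap. APOBEC3B, a cytidine deaminase, fell by 2.11 on the log2 scale (SE 0.22, adjusted p = 0.0839). Its signals were 12.66 and 13.21 on si-Control replicates 1 and 3, against 10.80, 10.79 and 10.88 after C1GALT1 knockdown. The spot of si-Control replicate 2 lies in the block left out, so that 2 si-Control arrays carry the value, and with the block kept the difference was 0.010. None of the 10 relatives of the 10 genes passed the threshold with limma, and 3 that were higher and 1 that was lower had an unadjusted p under 0.05. Of 10 partners and regulators, 2 rose, CMPK2 and CIAO1, and 2 fell, CDK1 and CCNA2. CIAO1 lies in the block left out on si-Control replicate 2, so that 2 si-Control arrays carry its value. CCNA2 has spots in that block too.

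Interferon genes and their targets were counted on the same arrays, where 2.08% of all genes rose and 1.33% fell past the threshold. Of 21 interferon ligands, receptors and signalling genes, 3 rose, namely IFNB1, IFNE and IFNGR1, and 0 fell. In this list 10 that were higher, these 3 among them, and 1 that was lower had an unadjusted p under 0.05 (limma). IFNB1, the gene of interferon beta, had signals of 6.94, 6.96 and 7.11 on the si-Control arrays and 8.83, 8.09 and 8.55 on the si-C1GALT1-3 arrays. The groups did not overlap, and the rise was 1.49 ± 0.22 on the log2 scale (adjusted p = 0.0961). Of 5 genes of the OAS family and RNase L, 3 rose, and OAS2 rose the most, by 2.63 ± 0.23 (adjusted p = 0.0499). Of 7 IFIT and IFITM genes, 2 rose, IFIT1 and IFIT3, with IFIT3 at 1.73 ± 0.39 (adjusted p = 0.170). IFIT3 passed the threshold in 9 of 17 alternative settings. Of 15 other interferon-stimulated genes, 7 rose and 0 fell, and IFI35 rose the most, by 2.60 ± 0.27 (adjusted p = 0.0688). The part of interferon in the rise of the 10 genes was not tested, and in bulk RNA a rise in all cells and a rise in some of them cannot be told apart.

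**Figure D5:**
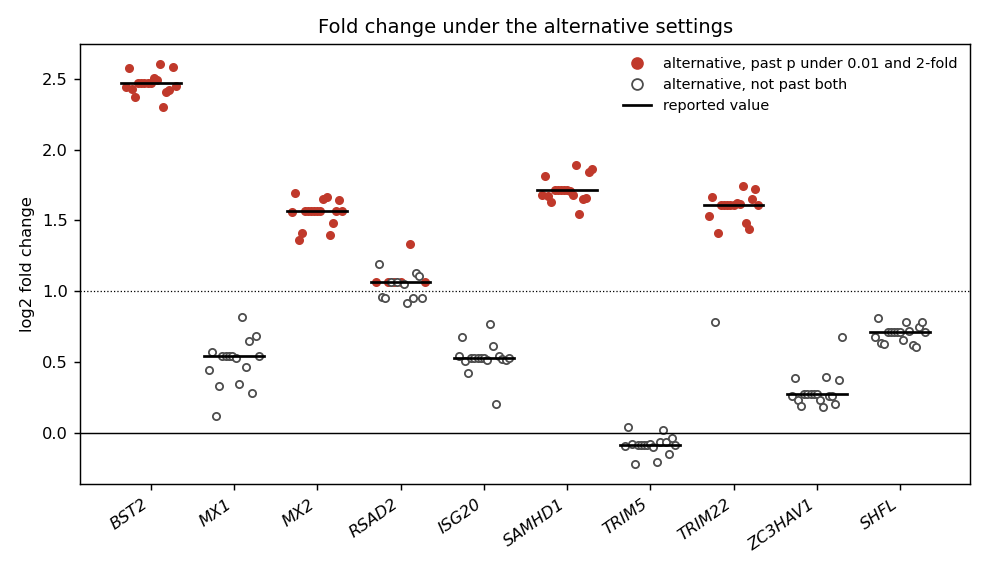
Log2 fold change of each gene (vertical axis) under the alternative settings, red where past p under 0.01 and 2-fold and open where not, with a line at the reported value. BST2, MX2 and SAMHD1 stay red in all settings, TRIM22 in 16 of 17 and RSAD2 in 6 of 17. MX1, ISG20, TRIM5, ZC3HAV1 and SHFL are open throughout. The setting that filters dim probes kept TRIM22 through its si-C1GALT1-3 spots alone, so it is no separate test of that rise.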

How the data were processed

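The authors deposited, for each of 6 arrays, the output of Agilent Feature Extraction 10.5.1.1, whose values are fluorescence intensity per spot, corrected within each array for background and spatial trends, with no normalization between arrays. Their series table, also deposited, holds background-subtracted intensity of the same spots.

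The members and gene lists were chosen with earlier results of these data known. The processed intensity was log2-transformed, control spots and spots marked as outliers (100 to 424 per array) were left out, and spots on lines 113 to 288 and columns 59 to 115 of si-Control replicate 2 were masked. After quantile normalization and averaging of repeated spots, the difference si-C1GALT1-3 minus si-Control was fitted by limma 3.58.1 (lmFit and eBayes, two-sided) in R 4.3.3 for 58195 probes. The threshold was an unadjusted p under 0.01 and 2-fold, as in the study, and p-values were adjusted by Benjamini-Hochberg across the whole table. The probe with the highest mean signal stood for a gene. Probes were named through RefSeq accessions, which gave 31104 probes a symbol and 27097 none.

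All 10 members and C1GALT1 are named, with the largest rise and fall past the threshold in each other list and the 5 genes most like BST2 by Pearson correlation. Genes named beyond this rule, the markers CLDN18, PTPRC, CD3E and CD14 and the genes CIAO1, CCNA2, CDK2, IFNE, IFNGR1 and IFIT1, were chosen after their values were seen. Deviations from the group means correlated at 0.200, 0.214 and 0.318 between arrays of the same number, which share a slide. The main fit left this pairing out, so its SEs, intervals and p-values are unpaired. The replicate block, which takes the numbers as pairs, was run as an alternative. The fit was tested on simulated data. The alternatives were the 75th percentile or no normalization, normexp (offset 50, on the median spot signal) in place of the processed signal, no mask, a filter on dim probes, the replicate block, a trend and robust prior, the methods' t-test, outlier spots kept, the series table with a floor of 10, the median over a gene's probes, and leaving out each array in turn.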

Additional observations from a re-analysis of the deposited data

How the results depend on the processing

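Over 17 alternative settings, BST2, MX2 and SAMHD1 passed p under 0.01 and 2-fold in all, TRIM22 in 16 and RSAD2 in 6. MX1, ISG20, TRIM5, SHFL and the long-form probe of ZC3HAV1 passed in none. The filter on dim probes kept TRIM22 through its si-C1GALT1-3 spots alone. Its si-Control spots were not well above background, so this pass is no separate test of the rise of TRIM22. The count of the 10 genes that rose was 5, and 3 with normexp background correction, where RSAD2 and TRIM22 fell under 2-fold. It was 4 to 5 when an array was left out. RSAD2 was lost on leaving out any array except si-Control replicate 2, and its log2 fold change over these settings was 0.92 to 1.33. The sign of TRIM5 turned with no normalization between arrays (0.040) and without si-Control replicate 3 (0.025, with a range of -0.20 to 0.025 when an array was left out). Over all probes, 1538 passed, 915 with normexp and 896 with the methods' t-test, and 1126 to 1781 when an array was left out. The share of these that were higher was 62.5%, but 72.6% with no normalization, 40.2% without the mask and 52.2% without si-Control replicate 1. The other genes of the pathway that passed numbered 24, with 14 without the mask, where APOBEC3B turned to 0.010, and 18 to 25 when an array was left out. These settings were extended to the pathway genes and C1GALT1 after seeing the data. The cause of these shifts was not tested.

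Probes with an adjusted p under 0.05 numbered 49, against 429 with normexp, 545 with the filter on dim probes and 74 with the series table. They numbered 31 with the 75th percentile, 2 with the methods' t-test and 0 in the other settings with a value per probe. The median over a gene's probes gives no such count. The adjusted p of BST2 was under 0.05 in 5 settings. With the replicate block, which pairs arrays by slide, 4 of the 10 genes rose, RSAD2 having an adjusted p of 0.225 and an unadjusted p over 0.01, 20 of the other pathway genes passed, the short-form probe of ZC3HAV1 was lost in the same way (adjusted p = 0.211), and 0 probes had an adjusted p under 0.05. The block changed no other call among the 10 genes. The 75th percentile moved the median log2 fold change of all probes to -0.11. MX1 was too dim for the filter on dim probes and has no value there. Dim signals limit MX1 and TRIM22.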
